A study of Homo sapiens with 6 samples.

Results

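The genes described here encode the machinery that carries proteins into mitochondria. They are the protein-coding genes whose symbol starts with TIMM or TOMM, together with PAM16, DNAJC19, GRPEL1, GRPEL2, PMPCA, PMPCB, SAMM50, MTX1, MTX2, CHCHD4 and GFER, and they made up 37 of the 60664 genes in the count table. Pseudogenes were left out. The choice rested on symbols and not on measured values, but it was made with earlier results of these data known. mRNA was sequenced from 3 libraries of HCT8 cells given a plasmid for overexpression of GPT1 and from 3 libraries of HCT8 cells given a control plasmid, whose genotype is labelled WT. The labels give the cells as HCT8, a human colorectal cancer line, and all cells grew in DMEM with fetal bovine serum. GPT1 is the cytosolic alanine aminotransferase, encoded by the gene GPT, and the study's title asks which signalling pathways it regulates in colorectal cancer. The sources used here do not give the promoter on the plasmid or the time after transfection.

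Nearly all mitochondrial proteins are made in the cytosol and imported. As background, precursors pass the outer membrane through the TOM complex. From there the TIM23 complex and its PAM motor take those with a presequence into the matrix, where a processing peptidase removes the presequence. The small TIM chaperones and the TIM22 complex serve carrier proteins, the SAM complex inserts barrel-shaped outer-membrane proteins, and a disulfide relay traps small cysteine-rich proteins between the membranes.

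The libraries held 30370654 to 31513656 counts with GPT1 and 21255655 to 32487217 counts with the control plasmid. GPT itself had 105529, 96886 and 106063 counts in the GPT1 libraries, against 9, 14 and 3 in the control libraries, in accord with the labels. Of the markers of the labelled cell type, KRT20 was at or near 0 in both groups, and the summed level of 11 epithelial and intestinal markers was 570.2 to 629 CPM (counts scaled to a common library total) with GPT1 and 931 to 1055 CPM with control plasmid, 9 of 10 tested members being lower. KRT8 and KRT18 made up 85.4% of this sum with GPT1 and 78.4% with control plasmid, and several others were low: EPCAM averaged 9.28 ± 0.437 CPM with GPT1 and 24.9 ± 1.15 CPM with control plasmid, and LGALS4 0.814 ± 0.115 CPM with GPT1 and 3.91 ± 0.262 CPM with control plasmid (SD, n = 3 each). By contrast VIM, a mesenchymal filament, averaged 1040 ± 4.68 CPM with GPT1 and 1023 ± 14.6 CPM with control plasmid, and the neurofilament gene NEFM 104 ± 3.33 CPM with GPT1 and 293 ± 41.7 CPM with control plasmid. The intestinal transcription factor CDX2 averaged 45.3 CPM with GPT1 and 41.7 CPM with control plasmid. The epithelial genes CDH1 and KRT19 averaged 12.5 and 11.4 CPM with GPT1, and 50.1 and 51.2 CPM with control plasmid. The mesenchymal gene COL1A2 averaged 0.0431 CPM with GPT1 and 0.0462 CPM with control plasmid. With several epithelial markers low and VIM high in all libraries, the identity of the cells rests on the label. A list of 7 neural and kidney-line genes summed to 250.4 to 260 CPM with GPT1 and 460 to 564 CPM with control plasmid. Of the 7 members, all tested, 3 were lower and 0 higher. NEFM and NEFL made up 73.0% of this sum with GPT1 and 87.4% with control plasmid. INA, which did not pass, averaged 61.1 CPM with GPT1 and 51.9 CPM with control plasmid. A mesenchymal list, made up mostly of VIM, summed to 1086 to 1109 CPM with GPT1 and 1068 to 1107 CPM with control plasmid, with 3 of 6 tested members higher. A leukocyte list summed to 1.36 to 1.71 CPM with GPT1 and 2.07 to 3.29 CPM with control plasmid, with 1 of 2 tested members lower and CD3E at 0. A proliferation list summed to 894 to 1003 CPM with GPT1 and 922 to 1125 CPM with control plasmid, with 1 member higher and 1 lower of 4. The part of these lists in the results below was not tested.

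Import transcripts were, as a group, more abundant in the GPT1 libraries. Of the 37 genes, 35 had enough counts to be tested, and 14 of these (40.0%) rose at a Benjamini-Hochberg adjusted p under 0.05 in edgeR's quasi-likelihood test, while 10.5% of all 17638 tested genes rose. None fell, against 14.6% of all tested genes. By unadjusted p under 0.05, 21 import genes were higher and 0 lower, with 17.4% of all tested genes higher. DESeq2 and limma voom each called 13 import genes higher and 0 lower, with 10.7% of all tested genes higher in either. The other 21 import genes did not pass the adjusted threshold. The median log2 fold change, GPT1 over control, was 0.23 for the import genes, with a range of -0.32 to 0.66, and -0.02 for all tested genes. It was above 0 for 28 import genes, and for 47.8% of all tested genes. The rises were small: the largest was 1.58-fold.

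The pattern was visible in the single libraries. The CPM of all 35 tested import genes, on library sizes scaled by edgeR's TMM factors as for every gene level below, summed to 3526, 3381 and 3517 in the GPT1 libraries, against 3046, 3205 and 3030 in the control libraries. Every GPT1 sum was above every control sum, and the ratio of the means was 1.12. For 20 import genes each GPT1 library was above each control library, among them all 14 that rose, where 21.2% of all tested genes had this order. Only TOMM70 had every GPT1 library below every control library, an order found in 22.2% of all tested genes. Control library 3, the shallowest, had the lowest level of all 6 libraries for 20 import genes, and GPT1 library 1 had the highest for 14. The matching shares over all tested genes were not computed. Both libraries also stood at the extremes of the GC trend given below. In RNA from whole cultures, more cells with a transcript and more of it per cell cannot be told apart. No source says that the libraries came from separate cultures, so the p-values measure only the spread between these libraries, which may be technical.

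**Figure D1:**
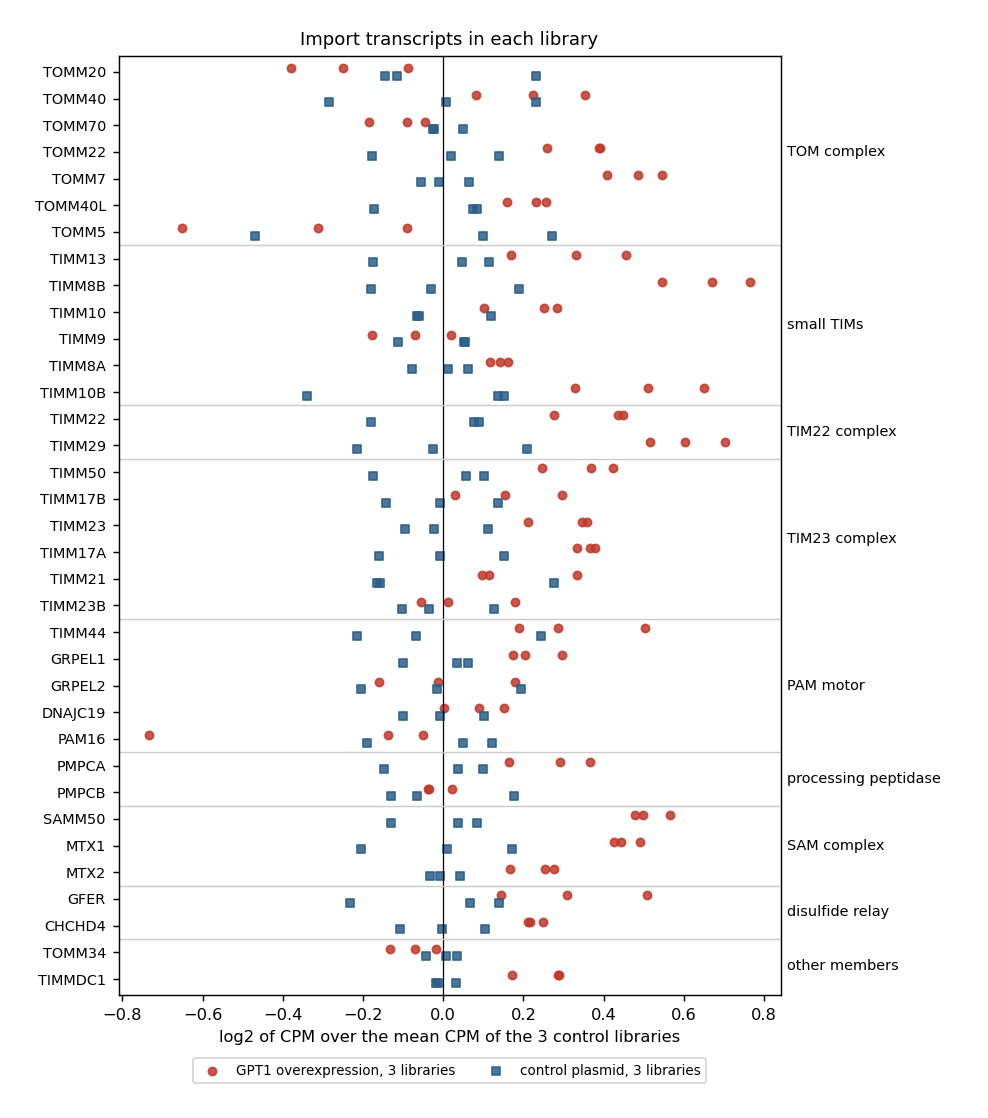
Each point is 1 library: the log2 of a gene's CPM over the mean CPM of the 3 control libraries, with GPT1 libraries as circles and control libraries as squares and the 35 tested genes ordered by complex. For 20 genes all 3 circles lie to the right of all 3 squares, and TOMM70 alone has all circles to the left.

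Transcript length and base composition moved with the comparison as well. Across 14782 tested genes with a mean of at least 1 CPM, the log2 fold change followed both. Its Spearman correlation was -0.37 with transcript length and 0.36 with GC content, a description in which all genes share the same 6 libraries. Within single libraries, deviations from each gene's mean correlated with GC content at 0.539, -0.142 and 0.328 in the GPT1 libraries. In the control libraries the values were -0.0415, 0.0932 and -0.585, so the groups overlapped. With length they were -0.432, -0.121 and -0.282 with GPT1, against 0.352, 0.0546 and 0.351 with control plasmid, without overlap. The highest GC value was that of GPT1 library 1 and the lowest that of control library 3. The import transcripts are short, with a median of 2472 bases against 3204.5 bases for all tested genes, and their median GC content of 46.3% lies below the 49.0% of all tested genes. After a correction of each library for both properties, 20 of the 35 tested import genes rose, against 19.5% of all tested genes. Of the 35, 1 fell (TOMM34), against 15.1% of all tested genes. Of the 14 genes that rose before the correction, 13 also rose after it. TIMM23 did not, with an adjusted p of 0.060. The corrected median log2 fold change was 0.22 for the import genes and 0.02 for all tested genes.

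**Figure D2:**
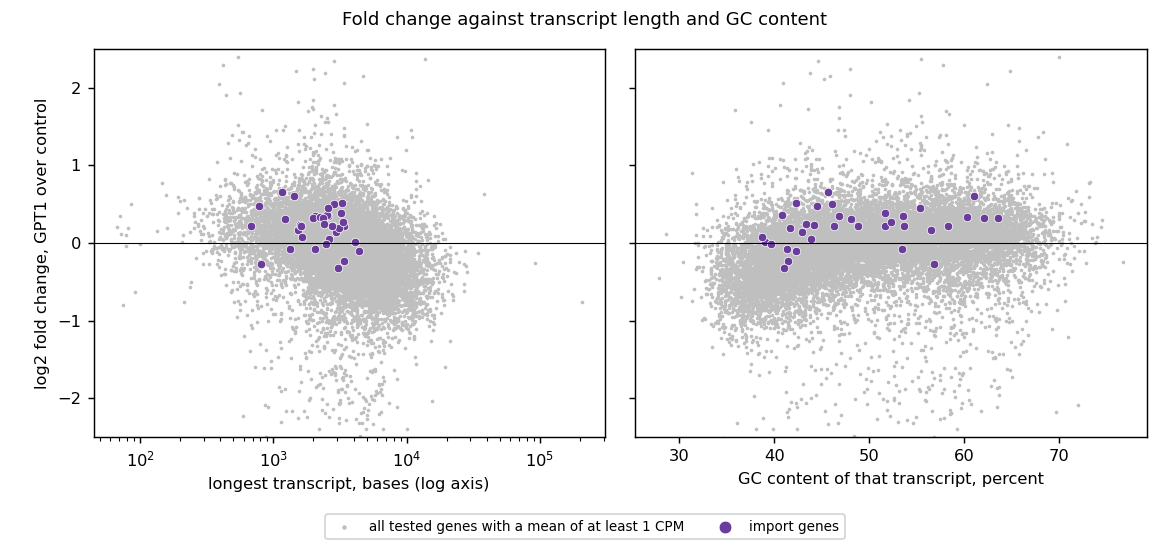
The log2 fold change (GPT1 over control) of 14782 tested genes is plotted against the length of the longest transcript (left, log axis) and its GC content in percent (right), with import genes in purple, and 19 genes lie outside the drawn range. Long and AT-rich transcripts tend to lie below 0, and the import genes lie mostly above 0.

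How far the rises hold without a given library differed between genes. TIMM8B, TOMM7, SAMM50 and TIMM29 stayed past the threshold in all 15 alternative settings, the highest adjusted p among them being 0.0439. The other 10 genes no longer passed without GPT1 library 1, and likewise without GPT1 library 3, so that 4 rises were left in each case. Calls over all tested genes dropped as well, to 3.58% higher without GPT1 library 1 and 3.39% without GPT1 library 3. Without control library 1, 6 rises were left, and 5.48% of all tested genes were higher. All 14 remained positive in each of these fits.

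Promoter windows of the import genes were searched for the letters of 5 known motifs on both strands. In the window from 250 bases before to 50 bases after the RefSeq transcription start, found for 34 of the 37 genes (not for TIMM8B, GRPEL1 and TOMM5), the NRF1 letters GCGCATGC stood on either strand in 5 import genes (14.7%), against 3.27% of 27305 windows. NRF1 is a transcription factor known for its role in nuclear genes of mitochondrial proteins. The letters CCGGAAGT, bound by ETS factors such as GABPA, stood in 9 (26.5%), against 4.44% of all windows, and the YY1 letters AAGATGGCG in 3 (8.82%), against 1.85%. The ATF4 letters TGATGNAA stood in 2 (5.88%), against 3.67%, and the CREB letters TGACGTCA in 0, against 1.98%. The 27305 windows were not limited to genes tested here. They were not matched to the import genes in expression or GC content. The NRF1 letters were found in 2 of the 13 windows of genes that rose and in 3 of the 19 windows of tested genes that did not pass. The ETS letters were found in 3 and 5 of these windows. The windows of the genes that rose and hold NRF1 or ETS letters are shown so that the letters can be seen in place, on the gene's strand from 5′ to 3′ (RefSeq, GRCh38.p14), with the matches in capitals. In TOMM7 (chr7:22822800-22823099, minus strand) the NRF1 letters begin 123 bases before the start, read as GCATGCGC. In TIMM10B (chr11:6481251-6481550, plus strand) the ETS letters, read as ACTTCCGG, begin 46 bases and the NRF1 letters 2 bases before the start. TIMM29 (chr19:10928561-10928860, plus strand) has the ETS letters 90 bases before the start, and TIMMDC1 (chr3:119498297-119498596, plus strand) has them 123 and 76 bases before the start. A match is a string of letters and not a measured binding site.
TOMM7: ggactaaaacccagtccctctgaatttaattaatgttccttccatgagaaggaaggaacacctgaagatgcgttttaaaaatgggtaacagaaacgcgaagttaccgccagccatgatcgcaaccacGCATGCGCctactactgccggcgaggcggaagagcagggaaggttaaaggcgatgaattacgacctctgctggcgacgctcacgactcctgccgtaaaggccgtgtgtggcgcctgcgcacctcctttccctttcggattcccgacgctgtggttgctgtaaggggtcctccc
TIMM10B: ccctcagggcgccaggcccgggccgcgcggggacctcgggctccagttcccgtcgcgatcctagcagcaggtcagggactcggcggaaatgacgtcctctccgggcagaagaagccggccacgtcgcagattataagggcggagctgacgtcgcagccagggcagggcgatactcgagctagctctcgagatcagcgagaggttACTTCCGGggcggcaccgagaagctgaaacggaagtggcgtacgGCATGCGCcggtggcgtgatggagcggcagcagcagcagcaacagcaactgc
TIMM29: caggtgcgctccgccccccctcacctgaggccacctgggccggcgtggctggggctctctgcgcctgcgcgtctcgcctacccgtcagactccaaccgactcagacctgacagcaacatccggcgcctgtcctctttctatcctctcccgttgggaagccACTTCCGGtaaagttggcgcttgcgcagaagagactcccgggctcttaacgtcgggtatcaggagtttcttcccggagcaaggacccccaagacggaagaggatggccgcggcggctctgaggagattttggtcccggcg
TIMMDC1: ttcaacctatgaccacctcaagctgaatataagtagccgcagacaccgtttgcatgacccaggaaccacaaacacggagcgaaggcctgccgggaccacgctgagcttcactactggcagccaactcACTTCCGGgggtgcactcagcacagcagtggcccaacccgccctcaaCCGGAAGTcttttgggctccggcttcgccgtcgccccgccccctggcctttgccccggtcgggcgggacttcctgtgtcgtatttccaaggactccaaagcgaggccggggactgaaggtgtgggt

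In the TOM complex, the entry gate of the outer membrane, 2 of 7 tested genes rose, and the summed level was 1207 ± 14.8 CPM with GPT1 and 1182 ± 35.8 CPM with control plasmid (SD, n = 3 each). TOMM7, a small subunit that shapes the complex, had 106, 96.1 and 101 CPM in the GPT1 libraries, against 71.8, 69.7 and 75.7 CPM in the control libraries. The groups did not overlap, and the control libraries lay close together. TOMM7 rose 1.40-fold (log2 fold change 0.48 ± 0.08 SE, adjusted p = 0.00406). It lies on chromosome 7 from 22812628 to 22822852 (GENCODE 29, GRCh38). TOMM22, a central receptor, had 198, 180.3 and 197 CPM with GPT1, against 153, 166 and 133 CPM with control plasmid. It rose 1.27-fold, with no overlap (0.35 ± 0.09 SE, adjusted p = 0.0243).

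The presequence receptor TOMM20 stood in the other direction without passing the test. Its levels were 380, 465 and 416 CPM with GPT1, against 456, 447 and 580 CPM with control plasmid. The high value was that of control library 3 alone, and the groups overlapped (log2 fold change -0.23 ± 0.11 SE, adjusted p = 0.151). The log2 fold change was -0.06 after the length and GC correction and -0.09 without control library 3. TOMM70, the receptor for carrier precursors and chaperones, had 176, 194 and 188 CPM with GPT1, against 197, 196 and 207 CPM with control plasmid. Its groups touched closely without overlap, the adjusted p was 0.326, and the log2 fold change was -0.11 before and 0.08 after the length and GC correction. The pore gene TOMM40 had 254, 210.7 and 233 CPM with GPT1, against 200.2, 234 and 163 CPM with control plasmid, and its paralog TOMM40L 74.7, 71.0 and 76.0 CPM with GPT1, against 66.9, 67.5 and 56.4 CPM with control plasmid. The groups overlapped for TOMM40 and not for TOMM40L. The adjusted p was 0.200 for TOMM40 and 0.119 for TOMM40L, whose log2 fold change was 0.22 before and 0.13 after the correction.

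The remaining TOM genes had few counts. TOMM5 had 63, 53 and 42 counts with GPT1, against 51, 82 and 50 with control plasmid, in overlapping groups. Its log2 fold change was -0.32 (adjusted p = 0.333), or -0.16 after the correction (adjusted p = 0.633). TOMM20L had 26, 7 and 8 counts with GPT1, against 5, 6 and 1 with control plasmid, and did not reach the count minimum. With no filter on low counts it was called higher, on these few counts. TOMM6 had 0 counts in all 6 libraries. All of its exon bases are shared with another annotated gene on the same strand, whose 6 libraries held 100 counts in sum, so no level can be read for it. Per kilobase of the longest transcript, TOMM7 stood at 129.9 CPM with GPT1 and 93.1 CPM with control plasmid, and TOMM20 at 124 CPM with GPT1 and 146 CPM with control plasmid. On this scale TOMM20 was the higher of the pair in control libraries, and in GPT1 libraries the gap between them was smaller than the spread of TOMM20 between libraries.

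**Figure D3:**
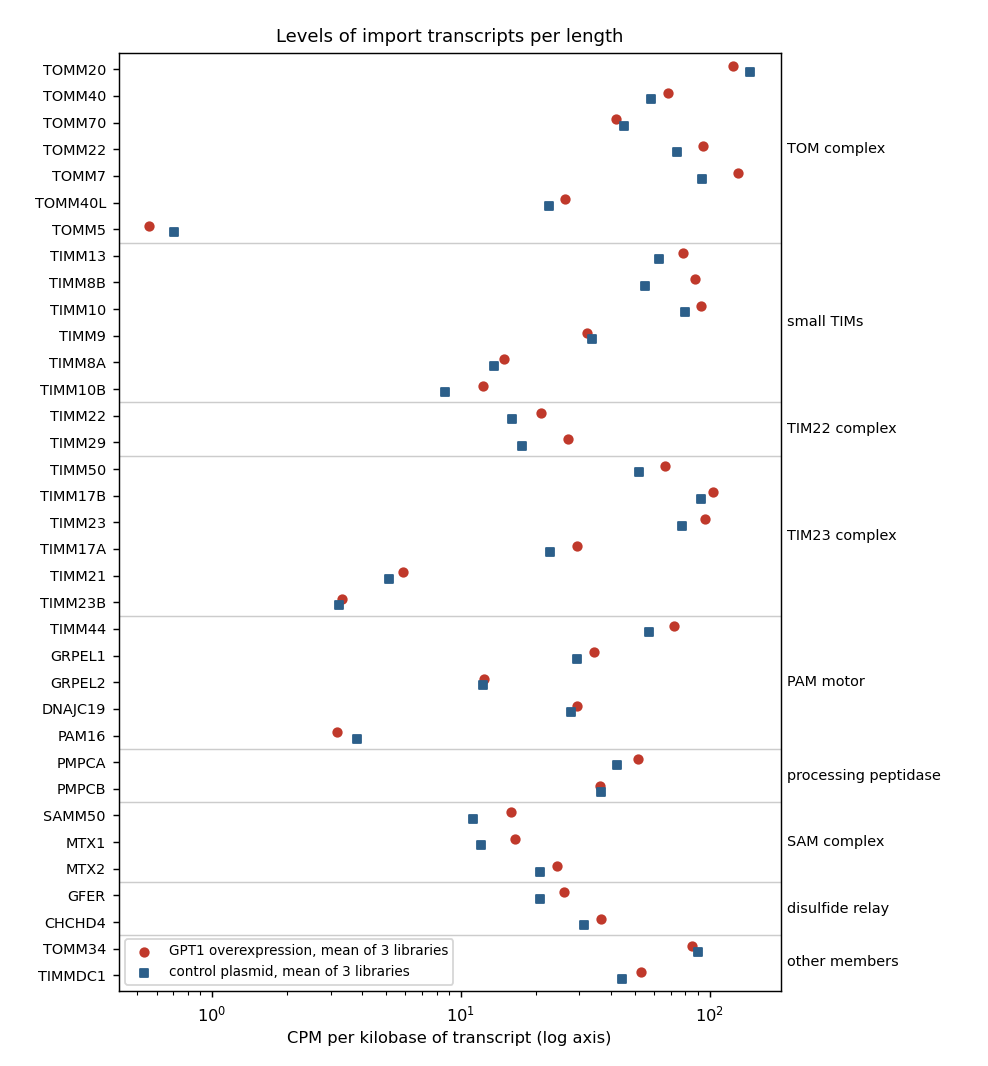
Mean CPM per kilobase of the longest transcript (log axis) of each tested import gene over 3 GPT1 libraries (circles) and 3 control libraries (squares), grouped by complex. Levels run from under 1 for TOMM5 to 129.9 with GPT1 and 146 with control plasmid, a spread between genes far wider than that between the groups.

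Among the small TIM chaperones, which escort hydrophobic precursors across the space between the membranes, 3 of 6 genes rose, and the summed level was 440 ± 19.6 CPM with GPT1 and 351 ± 27.2 CPM with control plasmid. TIMM8B had 108, 93.1 and 102 CPM in the GPT1 libraries, against 62.4, 72.7 and 56.2 CPM in the control libraries. The lowest GPT1 library lay well above the highest control library. Its rise of 1.58-fold was the largest of all import genes (0.66 ± 0.11 SE, adjusted p = 0.00294). TIMM8B lies on chromosome 11 from 112084800 to 112086798, and 30.1% of its exon bases overlap NKAPD1 on the opposite strand. NKAPD1 had 10059 counts over the 6 libraries and TIMM8B 14861, and without a known strand setting reads from the shared stretch cannot be assigned.

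TIMM13, the partner of TIMM8 proteins in a hexameric chaperone, had 169, 139 and 155 CPM with GPT1, against 127, 134 and 109 CPM with control plasmid. It rose 1.25-fold (0.32 ± 0.10 SE, adjusted p = 0.0426), with a narrow gap between the groups. After the correction its log2 fold change was 0.21 and still passed, and 13% of its exon bases are shared with LMNB2 on the same strand. LMNB2 had 115495 counts over the 6 libraries and TIMM13 24982, and reads from the shared stretch cannot be assigned with certainty. TIMM10B, which docks small TIMs on the TIM22 complex, had 30.8, 38.5 and 35.0 CPM with GPT1, against 27, 27.3 and 19.4 CPM with control plasmid. It rose 1.41-fold without overlap (0.50 ± 0.15 SE, adjusted p = 0.0309). Its highest level was that of GPT1 library 2.

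The main hexamer of carrier import, TIMM9 with TIMM10, did not pass. TIMM10 had 65.9, 58.2 and 64.5 CPM with GPT1, against 51.9, 58.8 and 51.8 CPM with control plasmid (log2 fold change 0.21, adjusted p = 0.123). After the correction the log2 fold change of TIMM10 was 0.00 (adjusted p = 0.972). TIMM9 had 39.8, 45.6 and 42.9 CPM with GPT1, against 41.6, 46.7 and 46.8 CPM with control plasmid (adjusted p = 0.614). Of the exon bases of TIMM9, 14.9% overlap KIAA0586 on the opposite strand. KIAA0586 had 5150 counts over all libraries and TIMM9 7784. TIMM8A, whose loss causes a deafness and dystonia syndrome, had 43.5, 44.8 and 44.3 CPM with GPT1, against 38.0, 40.5 and 41.9 CPM with control plasmid. Its groups did not overlap, but the log2 fold change of 0.14 ± 0.09 SE did not pass (adjusted p = 0.279), while after the length and GC correction it passed at 0.23 (adjusted p = 0.0165).

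Both tested genes of the TIM22 complex, the inner-membrane insertase for carriers, rose, and their summed level was 106 ± 5.06 CPM with GPT1 and 76.6 ± 8.52 CPM with control plasmid. TIMM29, a metazoan subunit that joins TIM22 to the TOM complex, had 40.9, 38.2 and 36.0 CPM with GPT1, against 24.7, 29.1 and 21.6 CPM with control plasmid. It rose 1.52-fold, second in size to TIMM8B (0.61 ± 0.12 SE, adjusted p = 0.00851), and lies on chromosome 19 from 10928733 to 10933535. TIMM22, the channel subunit, had 69.7, 62.4 and 70.3 CPM with GPT1, against 54.8, 54.3 and 45.4 CPM with control plasmid. It rose 1.31-fold (0.39 ± 0.10 SE, adjusted p = 0.0225). Neither gene's groups overlapped.

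In the TIM23 complex, the presequence translocase, 3 of 6 genes rose, and the summed level was 548 ± 29 CPM with GPT1 and 453 ± 28.3 CPM with control plasmid. TIMM50, its receptor, had 174, 159 and 180.4 CPM with GPT1, against 139.9, 144 and 119 CPM with control plasmid. It rose 1.27-fold (0.35 ± 0.09 SE, adjusted p = 0.0242). TIMM23, the subunit after which the complex is named, had 120.5, 109.8 and 122 CPM with GPT1, against 93.3, 102 and 88.8 CPM with control plasmid. The groups did not overlap, and the rise of 1.24-fold (0.31 ± 0.09 SE, adjusted p = 0.0301) is the one lost after the length and GC correction. TIMM23B, a near-identical copy of TIMM23, averaged 8.78 CPM with GPT1 and 8.49 CPM with control plasmid (adjusted p = 0.816), and reads may be split between the pair.

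TIMM17A and TIMM17B are alternative subunits of the same translocase. TIMM17A had 74.2, 72.6 and 74.8 CPM with GPT1, against 51.5, 57.3 and 64.0 CPM with control plasmid. The GPT1 libraries were nearly equal and all above the controls, and the rise was 1.28-fold (0.36 ± 0.10 SE, adjusted p = 0.0239), or 0.51 on the log2 scale after the length and GC correction (adjusted p = 0.000323). TIMM17B had 174, 144 and 157 CPM with GPT1, against 141, 155 and 128 CPM with control plasmid, in overlapping groups (log2 fold change 0.16, adjusted p = 0.240), and its log2 fold change was -0.0033 after the correction. TIMM21, which couples TIM23 to the TOM complex, averaged 18.1 ± 1.70 CPM with GPT1 and 15.9 ± 2.90 CPM with control plasmid (log2 fold change 0.19, adjusted p = 0.352). After the correction TIMM21 passed at 0.34 (adjusted p = 0.0104).

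None of the 5 genes of the PAM motor, which pulls presequence proteins into the matrix with mitochondrial Hsp70, passed the test in edgeR, DESeq2 or limma voom on the counts as deposited with the main count filter, though 2 were higher at an unadjusted p under 0.05. TIMM44, the anchor of the motor, had 180.3, 145 and 155 CPM with GPT1, against 121, 151 and 109.5 CPM with control plasmid. Control library 2 lay inside the GPT1 range (0.33 ± 0.12 SE, adjusted p = 0.0706). With no filter on low counts TIMM44 passed (adjusted p = 0.0120). GRPEL1, a nucleotide exchange factor of mitochondrial Hsp70, had 92.2, 94.1 and 100.3 CPM with GPT1, against 85.2, 83.7 and 76.2 CPM with control plasmid (adjusted p = 0.0745), with no overlap. Its paralog GRPEL2 had 45.3, 57.2 and 50.2 CPM with GPT1, against 50.1, 43.9 and 57.8 CPM with control plasmid, in overlapping groups (log2 fold change 0.01 ± 0.12 SE, adjusted p = 0.958). After the length and GC correction TIMM44, GRPEL1 and GRPEL2 passed, at log2 fold changes of 0.23, 0.22 and 0.30. The J-domain protein DNAJC19 averaged 47.8 ± 2.46 CPM with GPT1 and 45.1 ± 3.18 CPM with control plasmid. Its log2 fold change was 0.08 (adjusted p = 0.556), or 0.22 after the correction (adjusted p = 0.134). PAM16, whose yeast counterpart restrains the motor's J protein, had 93, 86 and 57 counts with GPT1, against 89, 101 and 73 with control plasmid. Its log2 fold change was -0.27 (adjusted p = 0.342), or -0.47 after the correction (adjusted p = 0.0873). Of its exon bases, 21.9% are shared with a readthrough gene on the same strand.

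Of the subunits of the processing peptidase, the one that recognises presequences rose and the catalytic one did not pass. PMPCA had 174, 159 and 183 CPM with GPT1, against 146, 152 and 128 CPM with control plasmid. It rose 1.21-fold, close to the threshold (0.28 ± 0.09 SE, adjusted p = 0.0487), and DESeq2 and limma voom did not call it. PMPCB had 88.2, 91.9 and 88.4 CPM with GPT1, against 82.8, 86.5 and 102 CPM with control plasmid (log2 fold change -0.02, adjusted p = 0.920), with the highest level in control library 3. After the correction the log2 fold change of PMPCB was 0.17 (adjusted p = 0.0520) and that of PMPCA 0.23 (adjusted p = 0.0134). The count ratio of PMPCA over PMPCB overlapped between the groups. Its log2 difference was 0.29 (exact permutation p = 0.3), or 0.06 with the correction.

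In the SAM complex of the outer membrane 2 of 3 genes rose, and the summed level was 133 ± 2.44 CPM with GPT1 and 100.5 ± 5.89 CPM with control plasmid. SAMM50, the pore that inserts barrel proteins such as TOMM40, had 50.6, 51.3 and 53.7 CPM with GPT1, against 37.3, 38.5 and 33.2 CPM with control plasmid. The GPT1 libraries were tightly grouped and far from the controls, with a rise of 1.43-fold (0.51 ± 0.10 SE, adjusted p = 0.00615), or 0.63 on the log2 scale after the length and GC correction. It lies on chromosome 22 from 43955421 to 44010531. MTX1, a metaxin of the same complex, had 43.7, 41.8 and 42.3 CPM with GPT1, against 31.3, 35.0 and 27 CPM with control plasmid. It rose 1.37-fold (0.45 ± 0.11 SE, adjusted p = 0.0186), and its pseudogene MTX1P1 held counts worth 7.11% of those of MTX1. MTX2 had 37.1, 39.4 and 40.0 CPM with GPT1, against 32.9, 32.3 and 34.0 CPM with control plasmid, without overlap (log2 fold change 0.23, adjusted p = 0.0935). It passed after the length and GC correction, at 0.20 (adjusted p = 0.0400).

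Neither gene of the disulfide relay passed in edgeR, DESeq2 or limma voom on the counts as deposited with the main count filter, and both were higher at an unadjusted p under 0.05. GFER, the sulfhydryl oxidase, had 69.2, 53.8 and 60.3 CPM with GPT1, against 51.0, 53.6 and 41.4 CPM with control plasmid (0.33 ± 0.13 SE, adjusted p = 0.0762). GFER passed after the length and GC correction, at 0.24 (adjusted p = 0.0143), and with no filter on low counts (adjusted p = 0.0350). CHCHD4, the oxidoreductase that captures the precursors, had 59.5, 58.2 and 57.9 CPM with GPT1, against 49.9, 53.8 and 46.5 CPM with control plasmid (0.22 ± 0.09 SE, adjusted p = 0.0940), and its log2 fold change was 0.09 after the correction. In both genes every GPT1 library was above every control library, for GFER by a very small margin.

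TIMMDC1 and TOMM34 are members by symbol that lie outside the translocase complexes. TIMMDC1, an assembly factor of respiratory complex I, had 130.4, 120.2 and 130.2 CPM with GPT1, against 106, 105 and 109 CPM with control plasmid. It rose 1.19-fold, the smallest rise that passed (0.25 ± 0.08 SE, adjusted p = 0.0407), and 29.2% of its exon bases overlap CD80 on the opposite strand, which had 56 counts in all. TOMM34, a cytosolic co-chaperone of precursor proteins, averaged 176 ± 6.96 CPM with GPT1 and 185 ± 5.00 CPM with control plasmid. Its log2 fold change was -0.07 ± 0.08 SE (adjusted p = 0.494) and, after the length and GC correction, -0.21 (adjusted p = 0.0142), the fall counted above.

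**Figure D4:**
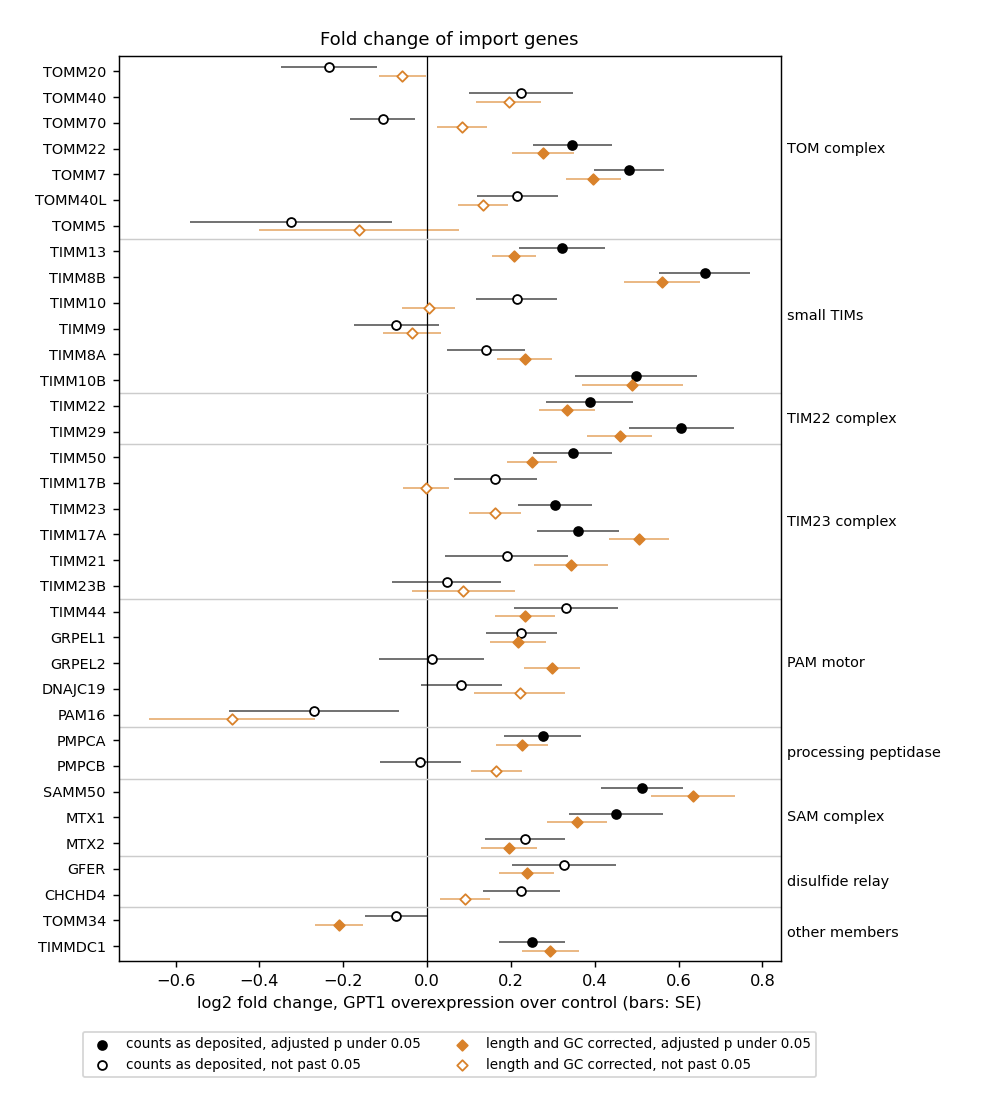
Log2 fold changes of the 35 tested import genes, GPT1 over control, with bars of 1 SE, from the counts as deposited (black circles) and after the length and GC correction (orange diamonds), filled where the adjusted p is under 0.05. The filled circles number 14, all to the right of 0, and range from 0.25 for TIMMDC1 to 0.66 for TIMM8B.

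Ratios between paralogs or partner subunits were computed within each library from counts, so that library scaling cancels. Of 10 pairs, 3 had groups that did not overlap, at an exact two-sided permutation p of 0.1, which is the smallest that 3 against 3 libraries allow, or 0.333 after Benjamini-Hochberg adjustment over the 10 pairs. No pair could therefore pass. TIMM8A over TIMM8B was 0.401, 0.482 and 0.436 with GPT1, against 0.610, 0.557 and 0.745 with control plasmid, a log2 difference of -0.53, or -0.33 with the length and GC correction. The ratio was lower in every GPT1 library under either computation. TIMM9 over TIMM10 was 0.604, 0.785 and 0.665 with GPT1, against 0.801, 0.794 and 0.903 with control plasmid, a log2 difference of -0.29 that shrank to -0.04, with overlap, after the correction. PAM16 over DNAJC19 was 0.0600, 0.0627 and 0.0391 with GPT1, against 0.0649, 0.0665 and 0.0757 with control plasmid, on the low counts of PAM16. Its log2 difference was -0.38, or -0.73 with the correction and -0.17 without GPT1 library 3. The other 7 pairs overlapped. TIMM17A over TIMM17B was 0.428, 0.503 and 0.476 with GPT1, against 0.366, 0.369 and 0.499 with control plasmid (log2 difference 0.20, exact permutation p = 0.3). With the correction the groups did not overlap, at a log2 difference of 0.51. CHCHD4 over GFER likewise did not overlap with the correction, at a log2 difference of -0.15, against -0.10 without it.

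**Figure D5:**
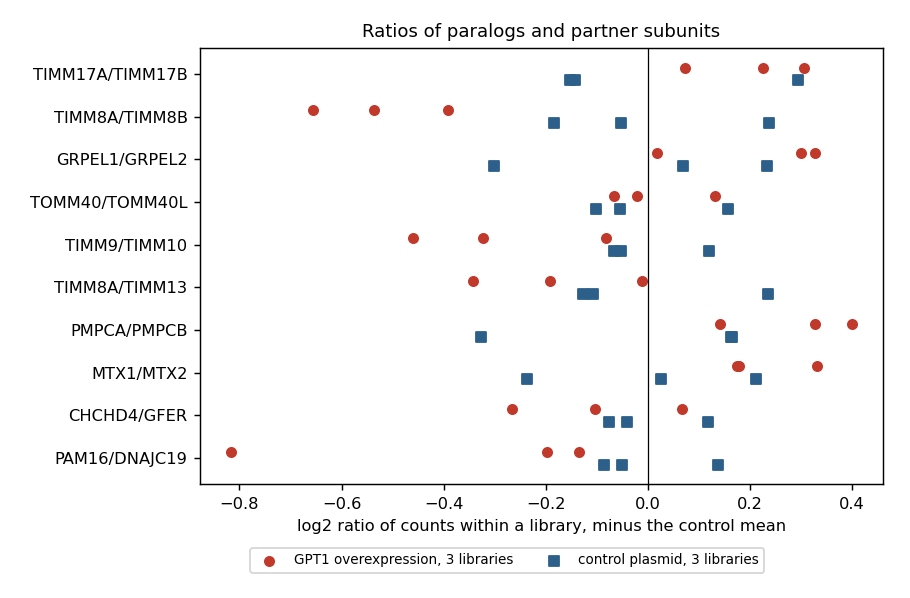
Log2 ratio of counts within each library minus the control mean, for 10 pairs of paralogs or partner subunits, with GPT1 libraries as circles and control libraries as squares. The circles lie left of all squares for TIMM8A/TIMM8B, TIMM9/TIMM10 and PAM16/DNAJC19, and the groups overlap in the other 7 pairs.

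Around the import machinery, 47 related genes were listed, covering chaperones, further outer- and inner-membrane factors, the MICOS complex and proteins that the import routes deliver. All 47 were tested: 11 rose (23.4%, against 10.5% of all tested genes), 2 fell (4.26%, against 14.6%) and 34 did not pass, with a median log2 fold change of 0.10. HSPA8, the cytosolic Hsp70 that hands precursors to TOM, averaged 1077 ± 21.5 CPM with GPT1 and 628 ± 36.9 CPM with control plasmid (0.78 ± 0.08 SE, adjusted p = 0.000187). ROMO1, a small inner-membrane protein of the TIM23 complex, averaged 80.1 ± 9.57 CPM with GPT1 and 47.7 ± 5.04 CPM with control plasmid (0.75 ± 0.11 SE, adjusted p = 0.00207). HTRA2, a protease of the space between the membranes, averaged 98.3 ± 3.41 CPM with GPT1 and 71.8 ± 5.00 CPM with control plasmid (0.45 ± 0.09 SE, adjusted p = 0.00642). These 3 passed without any single library. The other 10 calls were lost without GPT1 library 1 and without GPT1 library 3.

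The further genes that rose included the MICOS subunit MICOS13, at 66.9 ± 7.24 CPM with GPT1 and 46.5 ± 6.07 CPM with control plasmid, and the copper chaperone COX17, a substrate of the disulfide relay, at 51.9 ± 3.72 CPM with GPT1 and 39.1 ± 1.09 CPM with control plasmid. The outer-membrane insertase MTCH2 stood at 136 ± 4.52 CPM with GPT1 and 109 ± 6.57 CPM with control plasmid. The adjusted p was 0.0138 for MICOS13, 0.0145 for COX17 and 0.0203 for MTCH2. The genes that fell were APOOL, another MICOS subunit, at 17.7 ± 3.48 CPM with GPT1 and 28.9 ± 4.75 CPM with control plasmid (log2 fold change -0.71, adjusted p = 0.0139), and MTX3, a metaxin paralog, at 21.5 ± 4.94 CPM with GPT1 and 35.2 ± 8.81 CPM with control plasmid (adjusted p = 0.0251). After the length and GC correction the log2 fold change of APOOL was -0.28, still past the threshold (adjusted p = 0.0193), and that of MTX3 was -0.21 and did not pass (adjusted p = 0.0786), against -0.71 before. HSPA9, the mitochondrial Hsp70 that drives the PAM motor, averaged 776 CPM with GPT1 and 765 CPM with control plasmid, and did not pass.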

How the data were processed

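Total RNA was extracted with Trizol and mRNA libraries were made by Illumina protocols, per the labels' protocols. Reads were aligned with HISAT2 2.0 to GRCh38, per the submitters' processing notes. The authors deposited unnormalised read counts for each Ensembl gene. The sources used here do not name the counting tool, its annotation release or its strand setting. Reads of overlapping genes and near-identical copies therefore cannot be assigned with certainty.

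The members and gene lists were chosen with earlier results of these data known. Genes were named through a table of Ensembl identifiers, and positions and lengths are those of GENCODE 29. The groups were compared with edgeR 4.0.16 (R 4.3.3): filterByExpr, TMM factors, and the two-sided quasi-likelihood F test with Benjamini-Hochberg adjustment over 17638 genes at 0.05. The common biological coefficient of variation was 0.119. CPM values use TMM-scaled library sizes, except for marker lists. Replicate libraries differed by far more than sampling noise (chi-square per degree of freedom 9.98 to 30.8 over genes with at least 20 counts) and counted separately. The length and GC correction was a smooth fit per library (mgcv 1.9.3) entered as an offset, and 98.9% of tested genes had both values. The alternatives were DESeq2 1.42.0, limma 3.58.1 voom, other scalings, other count filters, a replicate block, the correction, and leaving out each library. Pair ratios used a pseudocount of 0.5 counts. The genes named are all import genes and, of the related genes, up to 6 in each direction with the smallest adjusted p among those past the threshold, plus HSPA9, named after its values were seen. The code was tested on simulated counts with known changes.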

Additional observations from a re-analysis of the deposited data

How the results depend on the processing

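Without single libraries, the number of genes called lay between 1443 and 4907 (4430 with all libraries), the import genes that rose between 4 and 15 (14), and the related genes called between 3 and 14 (13). The lowest values came from leaving out GPT1 replicate 3, and without GPT1 replicate 1 the counts were 1586, 4 and 3. Without control replicate 1 they were 2565, 6 and 7. The median log2 fold change of the import genes lay between 0.22 and 0.29. With the length and GC correction, 1 import gene fell, also with the replicate block added, and 21 related genes passed. The cause was not tested. Import genes that rose numbered 14 with RLE size factors and with total counts, where 2020 and 1814 of 17638 tested genes were higher. They also numbered 14 with a mean of at least 5 CPM, where 1454 of 11728 tested genes were higher. With no filter on low counts they numbered 16, where 2095 of 31515 tested genes were higher. Without the filter GFER, TIMM44 and the low-count TOMM20L were added, and TIMMDC1 was lost.

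No pairing by replicate number was seen: deviations of same-numbered libraries correlated at 0.28, -0.467 and -0.113. Not every library correlated best with its own number. These deviations also carry the length and GC trends of each library, so whether the libraries were paired cannot be decided from them. With the replicate block, 3886 genes passed, 1416 of 17638 tested genes being higher, and 10 import genes rose. With the correction added, 2871 of 17638 tested genes were higher and 18 import genes rose.

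No gene that rose changed sign in any of these settings. With the correction, the log2 fold change of TOMM70 was 0.0838 (-0.11 without it), of PMPCB 0.165 (-0.02) and of TIMM17B -0.00332 (0.16), and with the block added they were 0.0851, 0.164 and -0.00335. Without single libraries, TIMM23B lay between -0.0234 and 0.117, GRPEL2 between -0.0841 and 0.130, and PMPCB between -0.0686 and 0.0947. GRPEL2 was at -0.0040 with total counts. The log2 ratio difference of GRPEL1 over GRPEL2 was -0.0819 (0.21 without it) and that of TIMM8A over TIMM13 0.0277 (-0.18) under the correction, and TOMM40 over TOMM40L lay between -0.0438 and 0.0931 without single libraries. Low counts limit TOMM5, PAM16 and TOMM20L.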
